A study of Mus musculus with 2 samples.

Results

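Mir101a and Mir101b are the mouse genes that encode the microRNA miR-101, a short RNA described in the heart as limiting fibrosis, the build-up of scar matrix. They were taken by gene name: the 2202 miRNA gene IDs of the tables were matched to the GENCODE M21 annotation, and the 2 genes named Mir101a (ENSMUSG00000065451.1) and Mir101b (ENSMUSG00000065556.1) were kept. The study profiled heart tissue by microRNA-seq, which reads short RNA inserts one by one, in females aged 10 days. The mice were B6CASTF1/J, a first-generation cross between the CAST/EiJ and C57BL/6J strains. There was 1 group, with no treatment, no second age and no second tissue, made up of 2 hearts numbered as biological replicates 2 and 1 with 1 library each. The labels give separate biosamples under the same donor record and do not say how the animals were related. No fibrosis was measured, and the design holds no contrast between conditions.

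A microRNA is cut from a hairpin precursor, which leaves a mature strand of the 5′ arm (5p) and one of the 3′ arm (3p). The mature strand guides an Argonaute protein to messenger RNAs that pair with its seed, bases 2 to 8, and lowers their output. The 3p strand of miR-101 is the better known arm, and its best known target is Ezh2, the enzyme of the Polycomb repressive complex that methylates lysine 27 of histone H3. In rat cardiac fibroblasts miR-101 has been described as repressing Fos and, through it, the profibrotic growth factor TGF-beta. The whole heart holds muscle, vessel, connective tissue and blood cells, and in such bulk RNA fewer cells of a type and less RNA per cell cannot be told apart.

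The mature sequences are shown because the genes differ by very little, which decides how their reads can be counted. They are RefSeq's (GRCm38.p6), written 5′ to 3′ with the seed in capitals, and include the nearly identical miR-101c and the seed relative miR-144-3p.
miR-101a-3p: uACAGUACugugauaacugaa
miR-101b-3p: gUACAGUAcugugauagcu
miR-101c: aCAGUACUgugauaacuga
miR-144-3p: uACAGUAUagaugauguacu
miR-101a-5p: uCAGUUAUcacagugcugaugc
miR-101b-5p: uCGGUUAUcaugguaccgaugcu
As annotated, no pair of these strands had the same seed. The annotated start of miR-101b-3p lies 1 base before that of miR-101a-3p, so its seed is shifted by 1 base, and the start of miR-101c lies 1 base after it. The tables count reads per gene and give no read ends, so which start the hearts used, and which arm a read came from, was not measured.

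In the same register the 3p arms differ as follows, with 21 bases from the position of base 1 of miR-101a-3p taken from the M21 hairpins. Capitals mark the bases that differ between Mir101a and Mir101b, and for Mir101c those that differ from Mir101a.
Mir101a: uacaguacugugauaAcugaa
Mir101b: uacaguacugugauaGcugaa
Mir101c: CacaguacugugauaacugaU
Counted from base 1 of miR-101a-3p, the sole change to Mir101b is A16G, outside the seed. Mir101c differs by U1C and A21U, at the outer bases, and shares bases 2 to 20 of miR-101a-3p without a mismatch. The 5p arms are less alike: 5 of 22 bases differ between Mir101a and Mir101b (A3G, C11U, A12G, G15A and U17C, counted from base 1 of miR-101a-5p), the first of them inside the seed.

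The hairpins below show how far the genes are alike, with the annotated mature strands in capitals. They come from M21, on mm10, and for Mir101a and Mir101b are the same in RefSeq.
Mir101a: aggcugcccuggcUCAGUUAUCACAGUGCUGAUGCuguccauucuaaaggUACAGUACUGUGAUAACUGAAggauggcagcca
Mir101b: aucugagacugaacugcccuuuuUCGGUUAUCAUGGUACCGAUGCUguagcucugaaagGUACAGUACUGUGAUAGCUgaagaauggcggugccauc
The hairpin of Mir101a is 83 nt long and folds to a predicted minimum free energy of -47.0 kcal/mol with 29 base pairs. That of Mir101b is 97 nt long, at -39.6 kcal/mol with 32 base pairs. That of Mir101c is 75 nt long, at -16.1 kcal/mol with 17 base pairs. The longest exact run that Mir101a shares with another miRNA gene is 20 nt, with Mir101b, and covers bases 1 to 15 of miR-101a-3p. The run shared with Mir101c is 19 nt and covers bases 2 to 20. A gene is called detected from here on where each library holds at least 10 counts for it. Of the 346 detected genes, 81 (23.4%) have a run of at least 20 nt in common with some other miRNA gene. Among the annotated transcripts, miR-101b-3p was found in Mir101b alone, miR-101a-3p in Mir101a and its host transcript, and bases 2 to 20 of miR-101a-3p in Mir101a, its host and Mir101c.

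Mir101a lies on chromosome 4 (101346945 to 101347027, minus strand, mm10), within an exon of the long noncoding RNA gene E130102H24Rik on the same strand. Mir101b lies on chromosome 19 (29135279 to 29135375, plus strand), in an intron of both annotated transcripts of Rcl1, which encodes a protein of ribosomal RNA processing. The loci resemble each other. Read in the direction of the hairpin, Mir101a has the adenylate kinase gene Ak4 before it on the opposite strand, 72.2 kb away, and the cytokine signalling kinase gene Jak1 after it on the same strand, 81.7 kb away. Mir101b has the adenylate kinase gene Ak3 before it on the opposite strand, 87.3 kb away, and Jak2 after it on the same strand, 116.0 kb away. The nearest other annotated miRNA gene was 1690 kb from Mir101a and 1130 kb from Mir101b, so neither is part of a dense miRNA cluster. Mir101c lies on chromosome 9 (3038669 to 3038743, minus strand) and overlaps no other annotated gene.

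**Figure D1:**
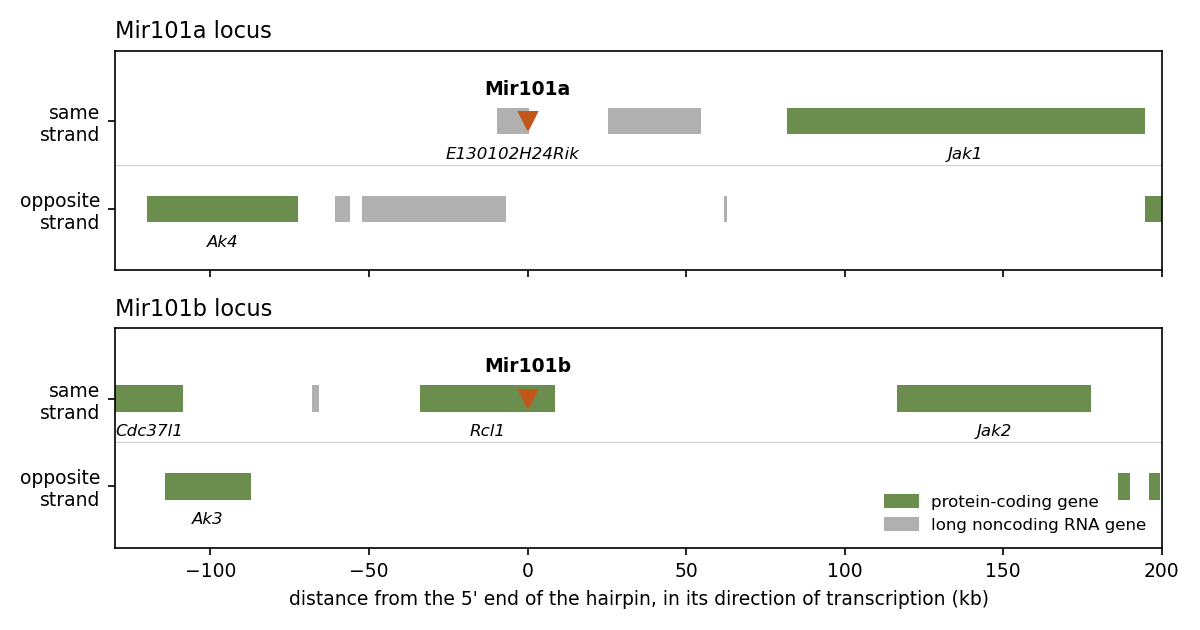
Genes around Mir101a and Mir101b, drawn to scale in kb from the 5′ end of each hairpin in its direction of transcription, with the same strand above and the opposite strand below. Both hairpins (triangles) sit between an adenylate kinase gene on the opposite strand (Ak4 at 72.2 kb, Ak3 at 87.3 kb) and a Janus kinase gene on the same strand (Jak1 at 81.7 kb, Jak2 at 116.0 kb), and the Mir101b hairpin lies within Rcl1.

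Of 10201509 reads in replicate 2 and 10782737 in replicate 1, 4583025 and 4260561 were counted on the strand of a named miRNA gene. Levels are given as CPM, in which these counts are scaled to a total of 1000000 for each library. Where a gene has 0 counts, up to 3 counts stay possible, equal to 0.655 CPM for replicate 2 and 0.704 CPM for replicate 1. No molecular identifiers are described, so exact intervals and this floor cover counting error only. Over all 2202 miRNA genes 346 were detected, and the detected counts of each list stand against this. As a check of the tissue, 6 of 7 heart and striated muscle genes were detected. They were led by Mir499 at 4784 ± 931 CPM, Mir208a at 2162 ± 1125 CPM and Mir208b at 1144 ± 143 CPM (SD, n = 2), with Mir1a-2 at 48.4 ± 7.10 CPM. Mir1a-1 and Mir133a-1 passed the minimum at only 2.60 and 5.18 CPM. Of 14 genes of liver, brain, epithelium and pancreas, 8 were detected, led by Mir200c at 420 ± 212 CPM, Mir122 at 109 ± 45.7 CPM, Mir203 at 102 ± 42.3 CPM and Mir200b at 31.8 ± 13.4 CPM, while the 3 copies of the neuronal Mir124a, and Mir9-1 and Mir9-2, stood at 0 in both libraries. The Mir124a copies have 32 nt in common with each other and Mir9-1 and Mir9-2 33 nt, so reads of their mature strands could hardly be placed at 1 position, and these zeros check nothing. Mir1a-2 has 28 nt in common with Mir1a-1, which leaves its level uncertain in the same way. All 6 blood genes were detected, led by Mir150 at 622 ± 39.8 CPM, Mir451a at 376 ± 206 CPM, Mir486 at 290.0 ± 12.1 CPM and Mir142 at 154 ± 19.6 CPM.

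Both miR-101 genes were detected, and Mir101b was the more abundant by counts in both hearts. Mir101a had 128 counts in replicate 2 and 166 in replicate 1. As levels these are 27.9 CPM (exact 95% interval 23.3 to 33.2) and 39.0 CPM (33.3 to 45.4). Its mean was 33.5 ± 7.80 CPM (SD, n = 2), rank 212 of the 346 detected genes, where the median gene stood at 85.1 CPM. By reads placed at 1 position, Mir101a therefore lay below the middle of the detected genes. It shares 19 of the 21 bases of its 3p strand with Mir101c, so this rank is uncertain. Its run of 20 nt with Mir101b covers only bases 1 to 15 of that strand.

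Mir101b had 613 counts in replicate 2 and 1270 in replicate 1. As levels these are 133.8 CPM (exact 95% interval 123.4 to 144.8) and 298.1 CPM (281.9 to 314.9). Its mean was 215.9 ± 116.2 CPM (SD, n = 2), rank 131 of 346, so it lay above the middle. Its run of 20 nt shared with Mir101a covers only bases 1 to 15 of miR-101a-3p. Among the annotated transcripts, miR-101b-3p was found in Mir101b alone. How shorter reads were placed is not given, so some uncertainty remains in this rank. Within the libraries, Mir101b ranked 151st among all genes in replicate 2 and 117th in replicate 1, and Mir101a 218th and 204th. Mir101c had 0 counts in both libraries, on either strand. The whole annotated miR-101c strand also occurs in Mir101a. Reads of miR-101c could therefore hardly be placed at 1 position, and these zeros say nothing about its level. No read was counted on the strand opposite to Mir101a or Mir101b, so their counts are the same without regard to strand.

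Mir101a stood below Mir101b by a log2 ratio of -2.26 in replicate 2 (exact 95% interval -2.55 to -1.98), and of -2.94 (-3.18 to -2.70) in replicate 1, with a mean of -2.60 ± 0.478 (SD, n = 2). In plain numbers Mir101b had 4.79 times the counts of Mir101a in replicate 2 and 7.65 times in replicate 1. It made up 82.7% of the 741 miR-101 counts in replicate 2 (exact 95% interval 79.8 to 85.4), while of the 1436 counts of replicate 1 it made up 88.4% (86.7 to 90.1). Neither interval of the ratio reaches equal counts. A read of this assay spans about a whole mature strand, so levels here are per gene and not per length; divided by the length of its hairpin, Mir101a was still lower, at a mean log2 ratio of -2.37. Reads placed at more than 1 position, 38.0% of replicate 2 and 38.9% of replicate 1, are assigned to no gene. Mir101a shares 19 of the 21 bases of its 3p strand with Mir101c, while Mir101b shares a run of 14 nt with Mir101c. How much this sharing has to do with the ratio was not tested.

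**Figure D2:**
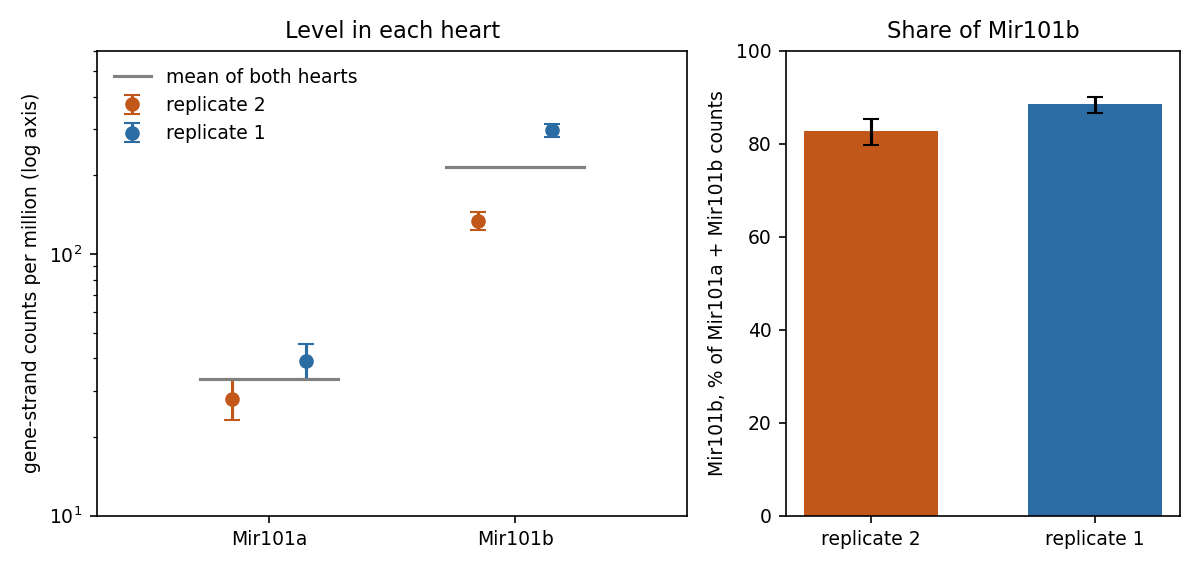
Left, level of Mir101a and Mir101b in replicate 2 and replicate 1 in CPM on a log axis, with exact 95% intervals for counting error and the mean of both hearts as a grey line. Right, share of Mir101b among the summed Mir101a and Mir101b counts, with exact 95% intervals. Mir101b lies above Mir101a in both hearts, and its share is 82.7% in replicate 2 and 88.4% in replicate 1.

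Both genes were lower in replicate 2, Mir101b by the larger factor. Each of 375 genes that summed to at least 20 counts was compared between the libraries by an exact two-sided binomial test, which takes their effective sizes into account, and p-values were adjusted over all 375 by the Benjamini-Hochberg method, with a threshold of 0.05. The test sets these 2 libraries against each other, not conditions, and covers counting error only. Mir101b had a log2 ratio of replicate 2 over replicate 1 of -1.09 (exact 95% interval -1.23 to -0.95), a 0.470-fold level, with an adjusted p of 6.85e-56 by the exact binomial test. Mir101a had a log2 ratio of -0.41 (-0.76 to -0.07), a 0.751-fold level, with an adjusted p of 0.0315 by the exact binomial test. With DESeq2 size factors Mir101a missed the threshold (adjusted p = 0.0569, exact binomial test), and likewise with no minimum on the summed count (adjusted p = 0.0623, exact binomial test).

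Such calls were common. The same test called 55.2% of the 375 genes, 29.1% lower in replicate 2 and 26.1% higher, so 2 of 2 called miR-101 genes is not a result about the pair. The size of the Mir101b difference was less common: 17 of the 375 genes had a lower ratio, and 21 of the 266 genes that summed to at least 100 counts, Mir101b included, had a ratio as far from 0 in either direction. For Mir101a 87 of 375 genes had a lower ratio, and the median distance from 0 over all tested genes was 0.37 on the log2 scale. The SD of Mir101b was 53.8% of its mean and that of Mir101a 23.3%, against a median of 16.1% over the detected genes.

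The balance between the genes also differed between the hearts. The odds of a miR-101 read coming from Mir101a rather than Mir101b were 1.60 times as high in replicate 2 as in replicate 1 (95% interval 1.23 to 2.07; Fisher's exact test, two-sided, p = 0.000269). This ratio does not depend on library size. It again compares 2 libraries, and with 1 library per heart the difference between animals and that between library preparations cannot be told apart.

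**Figure D3:**
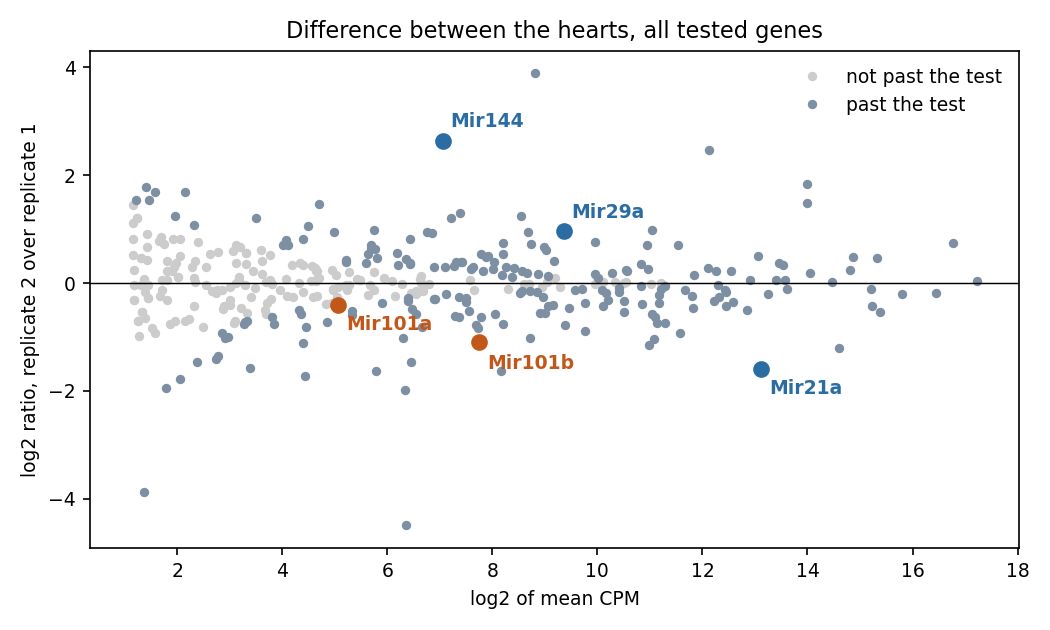
Log2 ratio of replicate 2 over replicate 1 against log2 mean CPM for the 375 tested genes; dark points passed the exact binomial test and pale points did not. Mir101a (-0.41) and Mir101b (-1.09), in orange, lie below 0, and Mir144 (2.64), Mir29a (0.96) and Mir21a (-1.60), in blue, are shown for comparison.

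Markers of cell types also differed between the same libraries. Their counts of calls stand against the 29.1% of all tested genes that were lower in replicate 2 and the 26.1% that were higher, and no list is shown to stand apart from all genes. Of the heart and striated muscle list 4 of the 6 tested genes were lower in replicate 2 and 1 higher. Its summed level was 6596 CPM in replicate 2 and 9699 CPM in replicate 1, with Mir208a at a log2 ratio of -1.05 and Mir499 at -0.33. Of the 6 blood genes 4 were higher in replicate 2, with a summed level of 1912 CPM against 1439 CPM in replicate 1. The gap lay mostly in the red blood cell genes Mir451a (521.3 CPM in replicate 2, 230.0 CPM in replicate 1) and Mir144 (228.2 and 38.3 CPM). Of the white blood cell genes Mir142 was higher, and Mir223 and Mir150 did not pass the test. Of the profibrotic and fibroblast list 4 of 8 tested genes were lower in replicate 2 and 4 higher, at summed levels of 14070 CPM in replicate 2 and 22870 CPM in replicate 1. Within it Mir21a, abundant in fibroblasts, had a log2 ratio of -1.60 and Mir214 one of 0.22. Mir21a alone, at 4247 CPM in replicate 2 and 13480 CPM in replicate 1, covers the gap between the sums. Of the list of other tissues 5 of 8 tested genes were lower and 2 higher, at summed levels of 552 CPM in replicate 2 and 851 CPM in replicate 1. Mir200c alone, at 269.9 CPM in replicate 2 and 569.9 CPM in replicate 1, covers that gap. The part of these differences in the lower miR-101 counts of replicate 2 was not tested.

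miR-101 was next set beside other miRNA genes reported to limit fibrosis in the heart: the miR-29 genes, which repress collagens, the muscle miR-133a, and the miR-30, miR-26a, miR-24 and miR-378a genes. Of these 17 genes 15 were detected, with a median of 168.9 CPM over all 17, and their leading members were Mir378a, Mir30d, Mir30a and Mir30e. By mean level 8 of the 17 lay above Mir101b, 4 lay below Mir101a and the other 5 between them. Summed over its 2 genes, miR-101 had 161.7 CPM in replicate 2 and 337.0 CPM in replicate 1. By uniquely placed reads it was near miR-24 (273.4 and 251.6 CPM) and miR-26a (80.7 and 250.9 CPM). It was far under miR-30 (54050 and 45780 CPM). The miR-133a genes summed to 3.49 and 9.15 CPM. Of the 17 genes 12 have at least 20 nt in common with some other miRNA gene, as the 2 miR-101 genes have with each other. Levels of such genes from uniquely placed reads are therefore uncertain. The shared runs are longer for miR-24 (28 nt), miR-26a (25 nt) and miR-133a (31 nt). Reads of their mature strands could hardly be placed at 1 position, so their sums may be too low. The run of the miR-101 genes covers only bases 1 to 15 of miR-101a-3p. How miR-101 ranks against these families is therefore uncertain.

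Of the 6 other families, miR-29 was the one whose ratio to miR-101 differed most between the hearts. Its 4 genes summed to 929.7 CPM in replicate 2 and 513.8 CPM in replicate 1. The log2 ratio of miR-101 over miR-29 was -2.52 (exact 95% interval -2.64 to -2.41) in replicate 2, against -0.61 (-0.71 to -0.51) in replicate 1. These intervals cover counting error only and do not overlap, which also held for every other family except miR-133a. The miR-101 sum is part of each ratio and itself stood at 161.7 CPM in replicate 2 and 337.0 CPM in replicate 1. With 55.2% of all tested genes called between the libraries, the lack of overlap is not a result about these families. Mir29a, which shares at most 14 nt with another miRNA gene and carries most of the miR-29 counts, had 3923 counts in replicate 2 and 1960 in replicate 1, a log2 ratio of 0.96. The order of miR-101 and miR-24 turned between the hearts, with a log2 ratio of miR-101 over miR-24 of -0.76 in replicate 2 and 0.42 in replicate 1. Mir24-1 and Mir24-2 have 28 nt in common with each other, so this order is uncertain. Between the libraries 8 of the 16 tested antifibrotic genes were higher in replicate 2, 4 lower and 4 not past the test, where 26.1% of all tested genes were higher and 29.1% lower. The median of their log2 ratios was 0.01, against -0.02 over all tested genes. This comparison with miR-29 was singled out after its values were seen.

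Genes reported to favour fibrosis or abundant in fibroblasts stood higher by median than the miR-101 genes. Of 9 such genes 8 were detected, with a median of 380.5 CPM, and 6 lay above Mir101b and 2 below Mir101a; 5 of the 9 have such a run of at least 20 nt, with the same limit. They were led by Mir21a at 8862 ± 6526 CPM, Mir214 at 4881 ± 378 CPM, Mir34a at 2506 ± 152 CPM and Mir155 at 1494 ± 125 CPM (SD, n = 2).

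Other miRNA genes reported to target Ezh2, as miR-101 does, spanned a wide range, and all 7 were detected, with a median of 84.2 CPM. Mir26b led at 16960 ± 1006 CPM, followed by Mir214 at 4881 ± 378 CPM, Mir98 at 2319 ± 491 CPM and Mir26a-2 at 84.2 ± 14.1 CPM. Mir101b stood above 4 of the 7, but these 4 (Mir26a-1, Mir26a-2, Mir138-1 and Mir138-2) are the ones with at least 20 nt in common with some other miRNA gene. Their runs are 25 nt (Mir26a-1 and Mir26a-2) and 24 nt (Mir138-1 and Mir138-2), so their counts may be too low. The run of Mir101b with Mir101a covers only bases 1 to 15 of miR-101a-3p. This order is therefore uncertain. Of these 7 genes 2 were higher in replicate 2, 3 lower and 2 not past the test; with 55.2% of all tested genes called, this says nothing about the list.

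**Figure D4:**
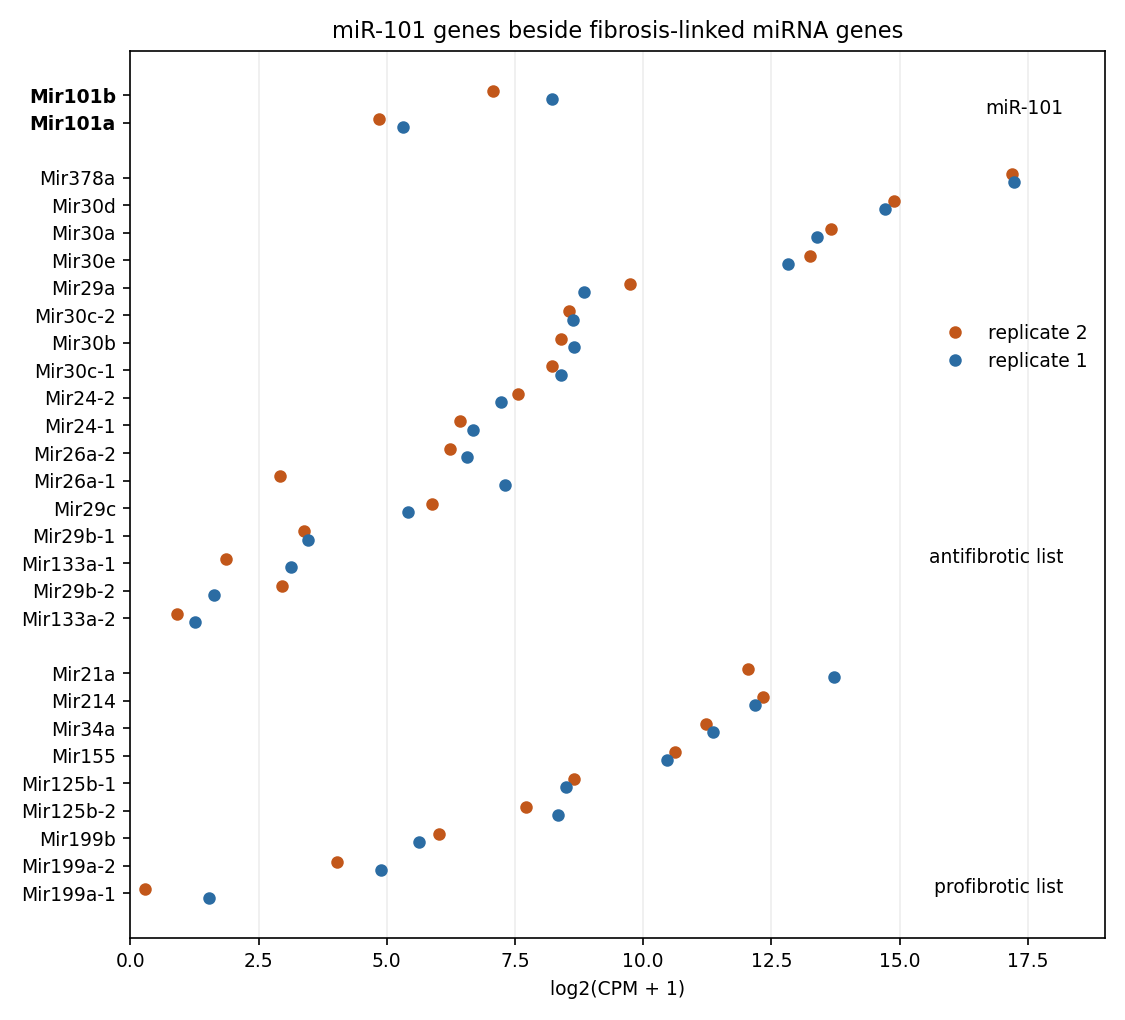
Level as log2(CPM + 1) in replicate 2 and replicate 1 of Mir101b and Mir101a (top), of 17 genes reported to limit cardiac fibrosis (middle) and of 9 reported to favour it or abundant in fibroblasts (bottom), each list ordered by mean level. The miR-101 genes lie within the range of both lists, with replicate 2 to the left of replicate 1, while Mir29a has replicate 2 to the right.

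Among the 1738 mature miRNAs of the RefSeq table, 2 outside the miR-101 genes share bases 2 to 7 with a miR-101 strand, and neither shares bases 2 to 8. miR-144-3p, shown above, shares bases 2 to 7 with miR-101a-3p and differs at base 8. Its gene Mir144, known from red blood cells, had 1046 counts in replicate 2 and 163 in replicate 1, a log2 ratio of 2.64, the direction opposite to both miR-101 genes. Mir144 thus had 228.2 CPM in replicate 2 and 38.3 CPM in replicate 1. Mir101a, the gene of the strand that shares these bases, had 27.9 and 39.0 CPM. Both miR-101 genes summed to 161.7 and 337.0 CPM, but most of that came from Mir101b, whose annotated 3p seed is shifted. miR-582-5p shares bases 2 to 7 with the annotated, shifted miR-101b-3p, and its gene Mir582 had 35 counts in replicate 2 and 36 in replicate 1 (8.04 ± 0.575 CPM, SD, n = 2).

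With 2 libraries a pattern over conditions cannot be compared, so the genes nearest in mean level are given in its place, 3 on either side in rank. Around Mir101a these were Mir673, Mir493 and Mir8112 above and Mir667, Mir770 and Mir200b below, from 37.0 ± 2.39 CPM for Mir673 to 31.8 ± 13.4 CPM for Mir200b. Of these 6, Mir493 was lower in replicate 2 (log2 ratio -0.42), Mir200b higher (0.95) and the other 4 not past the test. Around Mir101b they were Mir18, Mir669o and Mir671 above and Mir433, Mir669c and Mirlet7a-2 below, from 226.0 ± 17.6 CPM for Mir18 to 199.8 ± 18.5 CPM for Mirlet7a-2. Mir669o (-0.63), Mir433 (-0.84) and Mir669c (-0.78) were lower in replicate 2, Mir18 (0.23) and Mir671 (0.54) higher, and Mirlet7a-2 not past the test. The SD of Mir101b, 116.2 CPM, spans the means of all 6 of its neighbours, and that of Mir101a, 7.80 CPM, the means of all 6 of its own.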

How the data were processed

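MicroRNA-seq counts of 2 hearts were used. The authors deposited 1 table of raw counts per library, not normalized, made on mm10 with GENCODE M21, per the file headers; which aligner and counter were run is not given in the sources used here. The gene-strand column was the main measure, and its 4 category rows stayed out of library sizes. CPM were computed over counts on named genes. Ratios between libraries used TMM factors (edgeR 4.0.16, R 4.3.3) and a prior count of 0.5. The exact binomial test was tested on simulated data. Intervals are exact (Clopper-Pearson, or conditional for odds). Alternatives tried were DESeq2 1.42.0 size factors (1 in both libraries), the unstranded column, total counts, all reads as denominator, other minimums, hairpin length and leaving out a replicate. RefSeq hairpins matched M21 coordinates for 965 of 968 genes of the same symbol. Hairpins were folded with RNAfold 2.7.2; Python 3.11.15, scipy 1.17.1 and pandas 2.3.3 did the rest. Genes were named by level rank (3 either side), shared bases 2 to 7, overlap or neighbourhood, and as the 4 leading members of each of 6 lists. Members, lists and rules were chosen with earlier results of these data known.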

Additional observations from a re-analysis of the deposited data

Results flagged for a closer look

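Outside the gene counts, 3872896 reads of replicate 2 and 4193785 of replicate 1 were placed at more than 1 position; the floor for a gene with no count is 3. The tables do not say at which genes, so how many belong to Mir101a, Mir101b or Mir101c was not measured.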

How the results depend on the processing

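Without regard to strand, which removes genes with a partner on the opposite strand from the total, Mir101a stood at 47.3 CPM and Mir101b at 303.0 CPM, list medians were 70.9 CPM (antifibrotic), 542.5 (profibrotic), 7.24 (heart muscle) and 71.3 (blood), and 3 blood genes were detected. Over all reads Mir101a stood at 14.0 CPM and Mir101b at 88.9 CPM. The Mir101a difference between the libraries lost its call with DESeq2 size factors (log2 ratio -0.37, adjusted p = 0.0569, exact binomial test) and with a summed count of 1 or more (-0.41, adjusted p = 0.0623, exact binomial test, over 768 genes in place of 375); its other alternatives gave adjusted p from 0.0104 to 0.028 by the exact binomial test. The Mir101b difference kept its direction and call in its 5 alternatives, from -1.16 to -1.05. Genes called that were also 2-fold apart numbered 40, against 207. Leaving out a replicate gives the other library's value: 27.9 to 39.0 CPM for Mir101a, 133.8 to 298.1 CPM for Mir101b and -2.94 to -2.26 for their log2 ratio; with 2 libraries no difference between them is left to test. Of 45 alternatives that keep both replicates, 34 moved no value beyond the spread or over a threshold, but the ratio of Mir101a over Mir101b could not move without regard to strand. No paired analysis was possible because both hearts belong to the same group. Depth limits Mir101a most, whose interval in replicate 2 runs from 23.3 to 33.2 CPM.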
